A study of Caenorhabditis elegans with 2 samples.

Results

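Genes whose names begin with nhr- encode nuclear hormone receptors, and 269 of the 19985 protein-coding genes of *Caenorhabditis elegans* (Ensembl annotation of the WBcel235 assembly) carried such a name. They were taken by name alone, with no use of the measured values. Of the 269 nhr- genes, 167 lay on chromosome V and 102 on the other chromosomes, with 33 on IV, 23 on I, 23 on X, 15 on II and 8 on III. The study mapped the chromatin sites of the protein MADF-2 by chromatin immunoprecipitation and sequencing (ChIP-seq). The worms were of strain OP587, which carries unc-119(tm4063) on chromosome III and the integrated transgene wgIs587, from which MADF-2 is made with a GFP-FLAG tag at its C terminus. Chromatin of whole late embryos of both sexes, 3 hours after bleaching, was precipitated with an antibody against GFP in 2 biological replicates of 1 group, so there was no treated, mutant or untagged group to compare. All values come from a tagged protein of 1 transgenic line and from all embryonic cells mixed, so the cell types in which a site was occupied are unknown.

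Nuclear hormone receptors are transcription factors that bind DNA through a zinc-finger domain and, in many cases, a small lipophilic ligand through a second domain. Nematodes hold far more of them than insects or vertebrates do. Most of the worm genes descend from a relative of the vertebrate receptor HNF4, and many lie in runs of neighbouring copies on chromosome V. A smaller set has clear counterparts in insects and mammals, with roles in moulting, neuronal identity and the development of the embryo. Other worm receptors regulate fat metabolism and the response to starvation or foreign compounds. MADF-2 is one of the proteins with a MADF domain, which binds DNA through a fold like that of Myb proteins.

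The data are lists of regions in the ce11 build, which is the same assembly as WBcel235. Each region has a summit, the base of highest enrichment, and a signal value, the authors' own score of the region from the peak caller, whose scale is not known. The values describe and rank regions within a list and, where those of several lists stand side by side, their sizes are not comparable between lists. The list called on both replicates pooled held 30000 regions, with a median signal value of 24.96. Those of the single replicates held 30000 regions for replicate 1 and 27350 for replicate 2. The lists mix enriched regions with background, so a summit in them is a candidate only. The authors' reproducibility filter kept 772 optimal regions, and no other pooled region had a signal value as high as theirs (69.6 to 1036). A gene was counted when it had a summit between 1000 bp upstream and 200 bp downstream of its annotated 5′ end, called its window here. Because many worm transcripts are trimmed and trans-spliced at that end, distances to transcription start sites may be longer or shorter than those given.

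An optimal summit lay in the window of 5 nhr- genes, which were nhr-255, nhr-1 and nhr-48 on chromosome X and nhr-47 and nhr-142 on chromosome V. The DNA at these summits is shown because these are the strongest sites found in nhr- windows and because their GC content was above the median of the nhr- sites. Each sequence is the plus strand of the RefSeq genome of WBcel235, 100 bases with the summit at base 51. For nhr-47 only the 35 bases just upstream of the 5′ end are given, which stop before the summit is reached. Capitals mark the bases of a tRNA gene at nhr-255 and the CG dinucleotides at the others.
nhr-255, chrX:15742002-15742101: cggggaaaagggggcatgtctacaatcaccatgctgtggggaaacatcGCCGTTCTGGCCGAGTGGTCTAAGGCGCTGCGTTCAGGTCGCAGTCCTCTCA
nhr-47, chrV:5505218-5505252: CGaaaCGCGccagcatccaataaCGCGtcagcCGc
nhr-1, chrX:17513673-17513772: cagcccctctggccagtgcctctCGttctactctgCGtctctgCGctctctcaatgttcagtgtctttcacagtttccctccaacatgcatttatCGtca
nhr-142, chrV:5791025-5791124: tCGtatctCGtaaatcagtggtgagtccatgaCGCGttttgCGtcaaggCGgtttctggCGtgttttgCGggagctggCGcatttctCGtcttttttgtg
nhr-48, chrX:15707520-15707619: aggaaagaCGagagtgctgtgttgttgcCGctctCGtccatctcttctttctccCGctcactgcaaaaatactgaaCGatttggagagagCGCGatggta

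Among summits in nhr- windows, the highest signal value was at nhr-255 (WBGene00014068, chromosome X, 15742610 to 15744298, plus strand). It was 155 in the pooled list, where it ranked 130, with 87.3 in the list of replicate 1 and 72.8 in that of replicate 2. The optimal region ran from 15741854 to 15742249, and its summit, 558 bp upstream of the 5′ end, lay between coding genes. That summit was base 3 of a gene for leucine tRNA (15742050 to 15742133), whose first 52 bases are the capitals in the sequence above. The summits of the single replicates lay 560 bp (replicate 1) and 608 bp (replicate 2) upstream of nhr-255. How much of this recovery belongs to the tRNA gene and how much to nhr-255 was not tested, and without regions near tRNA genes 4 nhr- genes had an optimal summit.

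The next gene in order of signal was nhr-47 (WBGene00003637, chromosome V, 5505253 to 5509956, plus strand). Its signal value was 110.6 in the pooled list, at rank 276, with 60.4 in replicate 1 and 46.8 in replicate 2. The summit lay in the gene's own first bases, 15 bp downstream of its 5′ end, in the 5′ untranslated part. The replicates placed it 3 bp (replicate 1) and 16 bp (replicate 2) downstream, the closest placement to a 5′ end among these 5 genes. The same summit lay 411 bp upstream of dnj-19, a gene of the DnaJ co-chaperone family that is transcribed the other way, so it fell in the windows of both genes.

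At nhr-1 (WBGene00003600, chromosome X, 17514063 to 17528197, plus strand) the pooled signal value was 89.9, with 40.2 in replicate 1 and 48.1 in replicate 2. The summit lay 340 bp upstream of the 5′ end, and the replicates placed it 332 bp (replicate 1) and 329 bp (replicate 2) upstream. At nhr-48 (WBGene00003638, chromosome X, 15708213 to 15716875, plus strand) the pooled value was 82.7, with 54.7 in replicate 1 and 31.5 in replicate 2. nhr-48 belongs to the receptor family of daf-12 and nhr-8, related to the vitamin D receptor. Its summit lay 643 bp upstream in the pooled list, 652 bp upstream in replicate 1 and 517 bp upstream in replicate 2. Neither nhr-1 nor nhr-48 shared its summit with the window of another coding gene, and neither had an annotated noncoding gene within 300 bp of it.

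The fifth gene was nhr-142 (WBGene00018430, chromosome V, 5785957 to 5790553, minus strand), with a pooled signal value of 87.6, a value of 38.7 in replicate 1 and one of 44.6 in replicate 2. Its summit lay 522 bp upstream of nhr-142 but only 155 bp upstream of F44E7.9, a gene transcribed the other way. When each summit was given to the nearest coding 5′ end alone, nhr-142 lost its summit and the other 4 genes kept theirs. With a window of only 500 bp upstream and 100 bp downstream, nhr-1 and nhr-47 were left. By rank within each list, nhr-255 and nhr-47 stood within the strongest 772 regions of both single replicates. Among the strongest 772 regions of replicate 1, nhr-48 was present as well, while nhr-1 and nhr-142 were not, and nhr-32 and nhr-64 took their place. Among those of replicate 2, nhr-1 and nhr-142 were present and nhr-48 was not. So nhr-255 and nhr-47 passed this cut in each list, and for the other 3 it depended on which replicate was read. Among the 30000 regions of replicate 1, nhr-1 ranked 810 and nhr-142 ranked 919. Among the 27350 of replicate 2, nhr-48 ranked 1080.

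**Figure D1:**
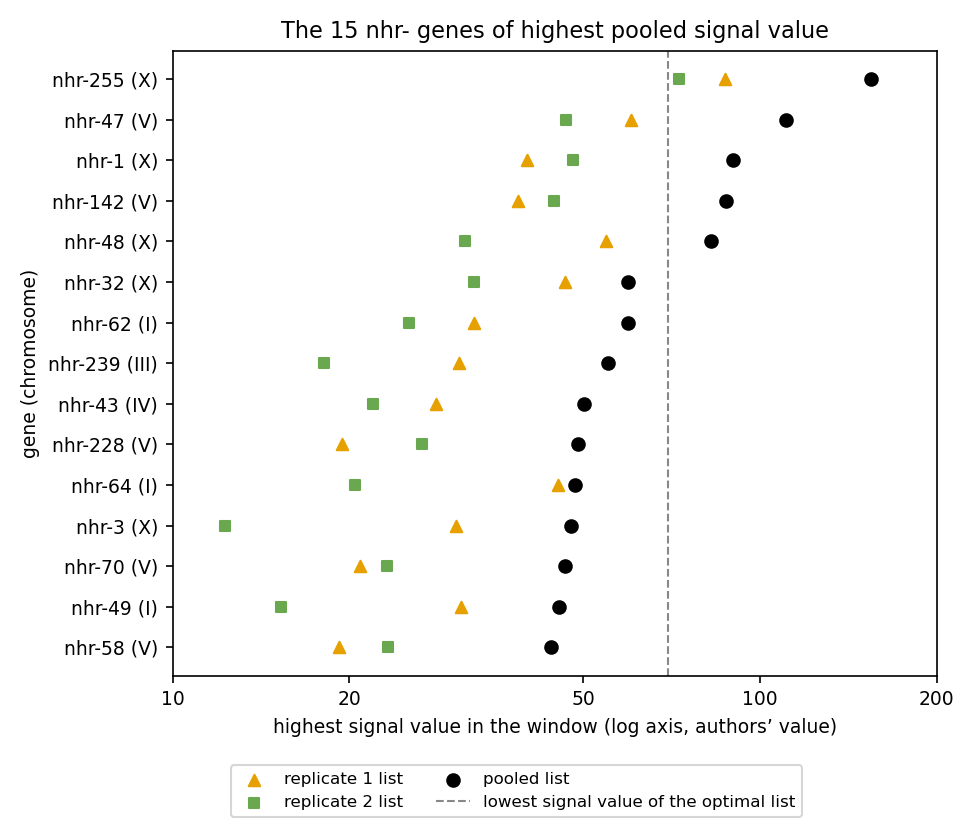
Highest signal value in the window (log axis, the authors' value) of the 15 nhr- genes of highest pooled signal, with the chromosome in parentheses. Black points are the pooled list, triangles replicate 1, squares replicate 2 and the dashed line the lowest signal value of the optimal list (69.6); nhr-32 at 59.7 is the first gene below it, and at each gene both replicate lists hold a value.

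Just below the optimal list stood nhr-32 (chromosome X), with a pooled signal value of 59.7 at rank 1107, 46.6 in replicate 1 and 32.6 in replicate 2. The lowest optimal value was 69.6, so nhr-32 was the first member outside that list and nhr-48 (82.7) the last inside it. After nhr-32 came nhr-62 on chromosome I, a receptor needed for the longer life of worms under dietary restriction, with 59.5 in the pooled list, 32.6 in replicate 1 and 25.3 in replicate 2. Its pooled summit lay close to the 5′ end, 76 bp upstream. nhr-239 (chromosome III), a receptor with counterparts in insects and mammals, followed with 55.03, with 30.8 at rank 1907 of replicate 1 and 18.1 at rank 7113 of replicate 2. nhr-43 (chromosome IV) had 50.2, and nhr-228, the third gene in order on chromosome V, had 49.1 with its summit 20 bp upstream of the 5′ end. nhr-64 (chromosome I), one of the closest worm relatives of HNF4, had 48.4 in the pooled list, 45.2 in replicate 1 and 20.5 in replicate 2. nhr-3 (chromosome X) had 47.6 in the pooled list, with 30.4 in replicate 1 and only 12.3 in replicate 2, near the lowest value of that list (10.8). nhr-70 (chromosome V, 46.6), nhr-49 (chromosome I, 45.5) and nhr-58 (chromosome V, 44.0) completed the 10 genes below the optimal list. nhr-49 regulates fatty acid desaturation and breakdown and the response to fasting; its signal value was 31.0 in replicate 1 and 15.3 in replicate 2, and its summits in the 3 lists lay 344 to 348 bp upstream.

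Over all members, a pooled summit lay in the window of 81 of 269 nhr- genes (30.1%, 95% Wilson interval 24.9% to 35.8%), against 35.7% of all protein-coding genes. An optimal summit lay in the window of 5 (1.86%, 0.796% to 4.28%), against 2.81% of all protein-coding genes. Summits of both replicate lists were present for 43 nhr- genes (15.99%, 12.1% to 20.8%), against 19.9% of coding genes. Neither in any region nor in strong regions were nhr- genes listed more often than coding genes in general. The intervals held the background share for pooled summits, for optimal summits and for both replicate lists. For pooled summits nhr- genes minus other coding genes gave -5.63 percentage points, with a Newcombe interval of -10.8 to 0.143. These intervals cover counting error only and treat genes as independent, which neighbouring copies of a family are not.

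The strength of the listed summits was close to that of other genes. The highest pooled signal value per gene had a median of 28.2 over the 81 nhr- genes, against 28.3 over the 7127 coding genes with a summit. Values ran from 17.6 at nhr-98 to 155 at nhr-255, and 44 of the 81 (54.3%) were above the median of the pooled list, against 62.4% of the coding genes. Of the 81 genes, 40 also had a summit of both replicate lists in the window, 17 of replicate 1 alone, 18 of replicate 2 alone and 6 of neither. These are 49.4%, 21.0%, 22.2% and 7.41%, against 52.0%, 21.7%, 20.3% and 6.06% of the coding genes with a pooled summit. Among the 40, replicate 1 and replicate 2 values had a Spearman correlation of 0.38 across genes (a description, since depth and local chromatin are shared), and 24 of the 40 were above the list's median in both replicates. No value over coding genes was computed for the correlation or for the 24 of 40. In all, 94 pooled summits fell in nhr- windows, and no summit fell in the windows of 2 nhr- genes. Of the 81 genes, 12 had more than 1 pooled summit (14.8%), against 18.5% of the coding genes with a summit. Of the 188 genes with no pooled summit, 141 had none in any list, 44 had one in a single replicate list and 3 had one in both, namely nhr-57, nhr-66 and nhr-225.

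Chromosome V was set against the rest because it holds most of the family. A pooled summit lay in the window of 46 of the 167 nhr- genes on chromosome V (27.5%, 21.3% to 34.8%) and of 35 of the 102 on the other chromosomes (34.3%, 25.8% to 43.9%), a difference of -6.77 percentage points (-18.2 to 4.38). With windows from 2000 bp upstream to 500 bp downstream it was -12.7 points (-24.5 to -0.471), and with the 5′ ends of every transcript -12.4 points (-24.0 to -0.810). Its interval held 0 in every other setting tried. For the larger window and every transcript's 5′ end no share of all coding genes was computed. Coding genes in general showed a difference in the same direction, with 25.8% on chromosome V and 39% on the other chromosomes, which is -13.2 points (-14.6 to -11.7). Within chromosome V, nhr- genes minus other coding genes gave 1.84 points (-4.50 to 9.16). Within the other chromosomes the same difference was -4.67 points (-13.2 to 4.99). The lower share of listed nhr- genes on chromosome V was in the direction seen for all coding genes, and neither within-chromosome difference had an interval clear of 0.

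The single lists gave the same picture. In replicate 1 a summit lay in the window of 41 nhr- genes on chromosome V (24.6%) and of 34 on the other chromosomes (33.3%), against 25.3% of the coding genes of chromosome V and 36.1% of those of the other chromosomes (33.4% of all). In replicate 2 the counts were 51 (30.5%) on chromosome V and 39 (38.2%) on the other chromosomes, against backgrounds of 27% and 38.2% (35.4% of all). Summits of both replicate lists were found for 24 nhr- genes on chromosome V (14.4%) and 19 on the others (18.6%), against 13.3% and 22.1% of the coding genes. The optimal list held 2 nhr- genes of chromosome V (1.20%, 0.329% to 4.26%) and 3 of the others (2.94%, 1.01% to 8.29%), against 1.78% and 3.16% of the coding genes. With counts this small a difference in optimal summits between the chromosomes was not detectable. The median pooled signal value was 27.3 on chromosome V and 28.8 on the others, and the quartiles, 21.0 to 35.0 on chromosome V and 21.1 to 46.5 on the others, overlapped.

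**Figure D2:**
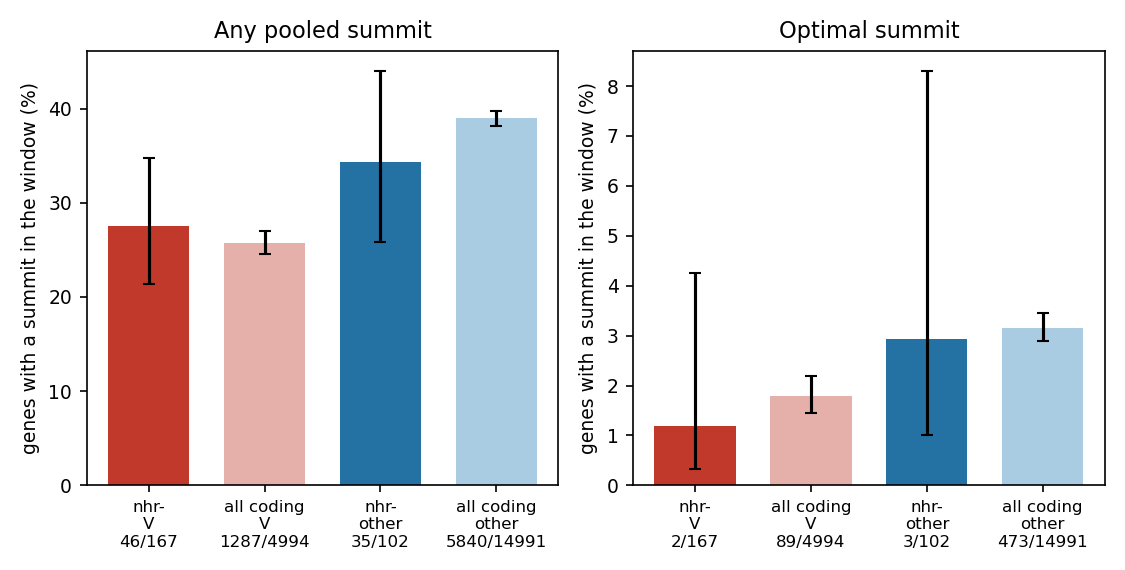
Share of genes (%) with a summit in the window, for any pooled summit (left) and for optimal summits (right), in nhr- genes and all coding genes of chromosome V and of the other chromosomes. Bars are shares with 95% Wilson intervals and counts beneath; nhr- genes of chromosome V (27.5%) stand beside all coding genes there (25.8%), and both stand below the other chromosomes.

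Among the other chromosomes the 3 optimal members were all on X. There, 3 of 23 nhr- genes had an optimal summit (13.0%, 4.54% to 32.1%), against 2.75% of the coding genes of X, and 12 of 23 had a pooled one (52.2%, 33.0% to 70.8%), against 36.3%. One of the 3 is nhr-255 with its tRNA gene. No nhr- gene of chromosomes I to IV had an optimal summit. The shares of the coding genes there were 3.68% on I, 2.84% on II, 3.94% on III and 2.74% on IV. On each of these chromosomes the share of nhr- genes with a pooled summit was below that of the coding genes. It was 7 of 23 on I (30.4%, against 45.6% of coding genes), 5 of 15 on II (33.3%, against 38.2%), 3 of 8 on III (37.5%, against 46.1%) and 8 of 33 on IV (24.2%, against 30.6%). The chromosome X count was picked out after its value was seen.

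In the pooled and replicate 1 lists, but not in that of replicate 2, the nhr- summits of chromosome V lay closer to the 5′ end than those of coding genes there. Over the 81 nhr- genes the median distance upstream was 172 bp (quartiles 43 to 643 bp), against 283 bp for all coding genes with a summit (quartiles 83 to 606 bp). On chromosome V the median was 106.5 bp upstream and on the other chromosomes 301 bp. Over nhr- genes of chromosome V the median was 110 bp in replicate 1, against 322 bp over the coding genes of that chromosome, and 318 bp in replicate 2, against 301 bp. Over all nhr- genes it was 177 bp upstream in replicate 1 and 358.5 bp in replicate 2. Within 250 bp of the 5′ end on either side lay 29 of 46 summits on chromosome V (63.0%) and 15 of 35 on the others (42.9%), a difference of 20.2 points (-1.58 to 39.6) that was 11.0 points in replicate 1 alone and 11.2 points in replicate 2 alone. Its interval was clear of 0 with the window of 500 bp upstream and 100 bp downstream (24.2 points, 1.05 to 45.5) and with summits given to the nearest 5′ end (24.3 points, 2.05 to 43.8). The interval held 0 with 2000 bp upstream and 500 bp downstream (16.8 points, -0.749 to 32.7) and with every transcript's 5′ end (17.6 points, -2.99 to 36.2). It also held 0 with pooled regions found in both replicate lists (27.9 points, -4.34 to 53.1). The same was true of replicate 1 alone (-11.1 to 31.8) and of replicate 2 alone (-9.21 to 29.95). Set against the other coding genes of chromosome V with a summit (45.1%), the nhr- genes there were 17.9 points higher (3.21 to 30.7). In the replicate 1 list that difference was 17.5 points (1.97 to 31.1), and in the replicate 2 list it was 2.92 points (-10.4 to 16.6), so the closeness to the 5′ end rested on replicate 1 and the pool.

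Many of these close summits were inside the gene. Of the 46 chromosome V genes, 13 had their strongest pooled summit in one of their own exons (28.3%), against 3 of 35 on the other chromosomes (8.57%), a difference of 19.7 points (2.08 to 35.0), and against 13.5% of the other coding genes of chromosome V, a difference of 14.8 points (3.68 to 29.2). Besides nhr-47, the 13 included nhr-70, with its summit 49 bp downstream of the 5′ end, nhr-58 (29 bp downstream), nhr-55 (12 bp), nhr-241 (52 bp), nhr-178 (82 bp) and nhr-102 (100 bp). Their pooled signal values were 110.6 at nhr-47 and between 17.8 (nhr-182) and 46.6 (nhr-70) at the others, so apart from nhr-47 none was in the optimal list. The 3 on the other chromosomes were nhr-64 (78 bp downstream), nhr-17 (8 bp) and nhr-85 (200 bp, the edge of the window). The exon comparison was made with the pooled list alone. Among the 13 genes, only nhr-47, nhr-70 and nhr-102 had the strongest summit of each replicate downstream of the 5′ end. In at least 1 replicate the others had it upstream or had none, as did the 3 genes on the other chromosomes. The position comparisons and the exon comparison were chosen after values had been seen.

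**Figure D3:**
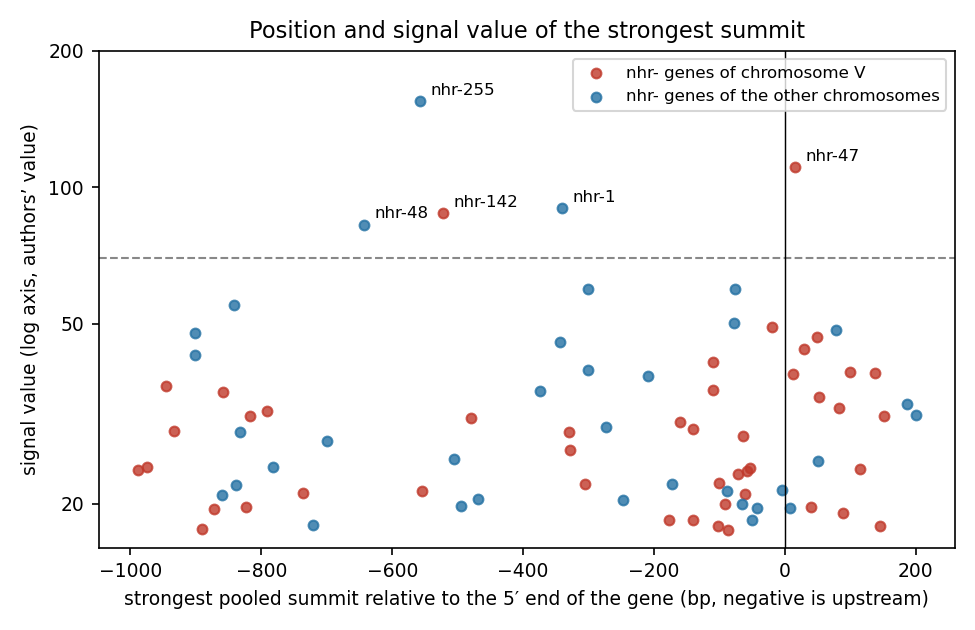
Signal value of the strongest pooled summit of each of the 81 nhr- genes (log axis, the authors' value) against its distance in bp from the annotated 5′ end, negative upstream, with chromosome V and the other chromosomes in separate colours. The chromosome V points have a median of 106.5 bp upstream (quartiles 546.75 bp upstream to 14.25 bp downstream). Those of the other chromosomes have a median of 301 bp upstream (quartiles 671 to 71 bp upstream), so the 2 sets overlap. In the replicate 2 list, not drawn, the medians were 318 bp upstream on chromosome V and 369 bp on the others. The dashed line at 69.6, the lowest optimal value, is passed by 5 genes spread from 643 bp upstream to 15 bp downstream.

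The nhr- summits were also assigned to their gene with less overlap than usual. Of the 81 strongest summits 8 lay in the window of another coding gene too (9.88%), against 29.7% for the other coding genes with a summit, a difference of -19.8 points (-24.7 to -11.3). The member had the coding 5′ end nearest to the summit for 75 of 81 genes (92.6%), against 80.5% over all coding genes. The 8 shared cases included nhr-47 and nhr-142, and nhr-8, a receptor of the daf-12 family with roles in cholesterol balance and resistance to toxins, shared its weak summit (pooled signal value 20.9) with emc-6, mrpl-1 and mrps-24. A gene that is not protein-coding lay within 300 bp of 11 of the 81 summits (13.6%, 7.76% to 22.7%), against 13.99% over all coding genes with a summit. It was a tRNA gene at 2 of them, nhr-255 and nhr-193 (2.47%, 0.680% to 8.56%, against 0.982%), and a snoRNA or snRNA gene at none.

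Further optimal summits lay inside nhr-17, nhr-41 and nhr-91 but outside their windows, and each had an annotated noncoding gene within 300 bp of it. In nhr-17 (chromosome X) the summit had a signal value of 219 and lay 2621 bp downstream of the 5′ end, near a tRNA gene and a noncoding RNA gene. In nhr-41 (chromosome IV), the counterpart of an insect receptor, it had 121 and lay 2102 bp downstream, near a tRNA gene. In nhr-91 (chromosome X), the counterpart of the mammalian germ cell nuclear factor, it had 74.03 and lay 1121 bp downstream, near the noncoding RNA gene Y15E3A.15. Upstream of the window, out to 2000 bp, no nhr- gene had an optimal summit. These counts stand without a share over all coding genes or all optimal regions. Whether they are particular to nhr- genes therefore cannot be told. When the 5′ end of every annotated transcript was used, nhr-41 joined the 5 genes, since its summit falls in the window of another annotated transcript.

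Along chromosome V the share of listed nhr- genes was higher towards the ends than in the middle. Its middle 50% held 56 nhr- genes and the outer 25% at each end held the others. A pooled summit lay in the window of 37 nhr- genes of the outer parts (33.3%, 25.3% to 42.5%) and of 9 of the middle part (16.1%, 8.69% to 27.8%), a difference of 17.3 points (3.01 to 29.1). Over all coding genes of chromosome V the shares were 26.0% in the outer parts and 25.5% in the middle. The left end had 27 of 74 nhr- genes (36.5%) and the right end 10 of 37 (27.0%). With the list of replicate 1 in place of the pooled list the difference was 15.4 points (1.64 to 26.8), and with that of replicate 2 it was 11.0 points (-3.96 to 24.0). The optimal summits ran the other way, since both optimal genes of chromosome V, nhr-47 and nhr-142, lay in the middle part, as did 71 of the 89 coding genes of chromosome V with an optimal summit. This division was made after the data had been seen.

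**Figure D4:**
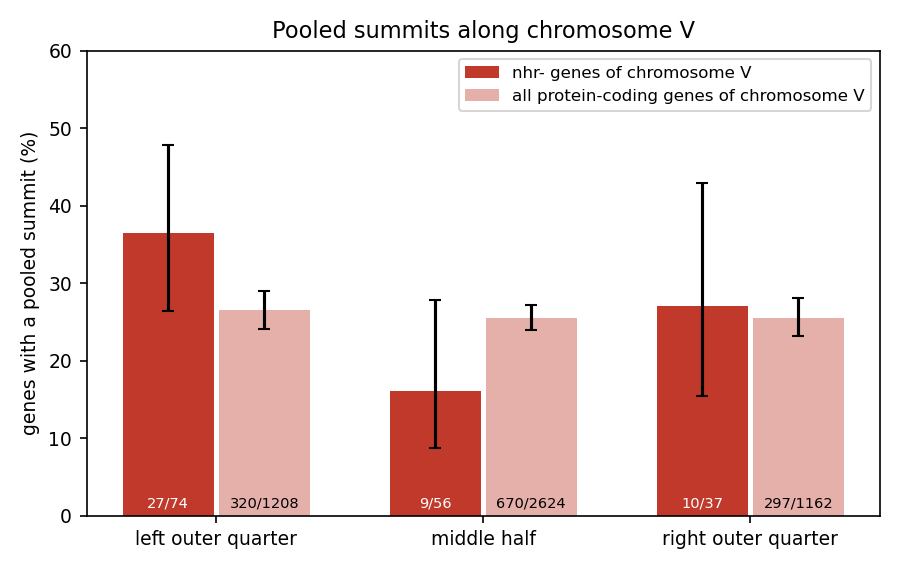
Share of genes (%) with a pooled summit in the window for nhr- genes and all coding genes in the left outer part, the middle and the right outer part of chromosome V. Bars are shares with 95% Wilson intervals and counts at their base; nhr- genes reach 36.5% in the left part, 16.1% in the middle and 27.0% in the right part, while coding genes stay between 25.5% and 26.5%.

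Neighbouring copies of the family were compared with nhr- genes that stand apart. A run was defined as 2 or more nhr- genes with at most 5 kb between them, and 142 of the 269 genes lay in 41 runs, of which 29 runs with 112 genes were on chromosome V. A pooled summit lay in the window of 36 of the 142 genes in runs (25.4%, 18.9% to 33.1%) and of 45 of the 127 outside runs (35.4%, 27.7% to 44.1%), a difference of -10.1 points (-20.9 to 0.892). With replicate 2 alone it was -17.2 points (-27.99 to -5.85), and with replicate 1 alone -12.8 points (-23.3 to -2.06). With a window of 500 bp upstream and 100 bp downstream it was -6.72 points (-16.4 to 2.87). With 2000 bp upstream and 500 bp downstream it was -6.32 points (-17.9 to 5.47). On chromosome V the shares were 25.9% in runs and 30.9% outside, and on the other chromosomes 23.3% in runs and 38.9% outside. The coding genes of chromosome V had 25.8%, close to the share in runs there, and those of the other chromosomes 39%, close to the share outside runs. None of the 142 genes in runs had an optimal summit, which by the rule of 3 counts allows a share of up to 2.11%, against 5 of the 127 outside runs. The backgrounds are 2.81% of all coding genes and 1.78% of those of chromosome V, where most runs lie, so the limit lies below the share of all coding genes and above that of chromosome V. The count in runs was also 0 with gaps of up to 2 kb (121 genes) or 10 kb (159 genes). Runs of 9 genes were the longest: that from nhr-133 to nhr-96 on chromosome V had 2 genes with a pooled summit (nhr-133 and nhr-96), and that from nhr-185 to nhr-124 also had 2 (nhr-188 and nhr-157). Copies of like sequence can lose reads that map to several places, and how the authors treated such reads is not known here, so their part in the lower share was not tested.

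By role, the list of nhr- genes with counterparts in insects or mammals had the highest share of the 5 lists. A pooled summit lay in the window of 9 of the 11 genes of that list (81.8%, 52.3% to 94.9%), and summits of both replicate lists in 6, with a median pooled signal value of 31.4. With the window narrowed to 500 bp upstream and 100 bp downstream, 4 of the 11 had one. In the window of 1000 bp upstream and 200 bp downstream, 35.7% of all coding genes had a pooled summit. There, 19.9% had summits of both replicate lists and 2.81% an optimal one. No background was computed for the narrower window. The list leaves out receptors without an nhr- name, such as daf-12, of which 1 of the 5 looked up had a pooled summit. A share over 11 genes chosen with earlier results known is a description only. The 9 were led by nhr-48 (82.7) and nhr-239 (55.03). Next came nhr-25, the counterpart of mammalian SF-1 and fly Ftz-F1, which acts in epidermal development and moulting. Its values were 39.4 in the pooled list, 25.1 in replicate 1 and 25.2 in replicate 2. The window of nhr-25 held 2 pooled summits, the stronger 301 bp upstream. Its strongest summit lay 242 bp upstream in replicate 1 but 34 bp downstream in replicate 2, so the replicate values belong to different positions. nhr-41 had a window summit of 38.4, and nhr-85, related to fly E75, had 31.4. The lowest 4 were nhr-6, the worm NR4A receptor (25.2), nhr-111 (21.1), nhr-8 (20.9) and nhr-91 (19.8), all below or near the list's median of 24.96. nhr-23, the counterpart of mammalian ROR that drives moulting, and nhr-67, the counterpart of fly tailless, had no pooled summit, although replicate 2 alone had one at nhr-23 (19.5). Of these 9 genes nhr-48 alone had an optimal summit in its window.

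Among receptors of metabolism and stress, 11 of 21 had a pooled summit (52.4%, 32.4% to 71.7%), 8 had summits of both replicate lists and none had an optimal one. The shares of all coding genes are 35.7%, 19.9% and 2.81%, and the interval of the pooled share holds its background. The highest values were those of nhr-62 (59.5), nhr-64 (48.4) and nhr-49 (45.5), given above. nhr-114 had 35.7 and 3 pooled summits in its window, with 16.4 in replicate 1 and 18.4 in replicate 2. nhr-88 (33.3), nhr-86 (30.3), nhr-13, a partner of NHR-49 (29.2), nhr-42 (23.7), nhr-8 (20.9), nhr-14 (20.5) and nhr-45 (18.0) made up the rest. The 10 without a pooled summit were nhr-10, nhr-28, nhr-31, nhr-57, nhr-66, nhr-68, nhr-69, nhr-76, nhr-79 and nhr-80. Of these, nhr-57, a target of the hypoxia factor HIF-1, had 18.8 in replicate 1 and 15.6 in replicate 2, and nhr-66, which acts with nhr-49 in lipid metabolism, had 21.2 in replicate 1 and 14.01 in replicate 2.

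Of 9 receptors of embryonic development, 4 had a pooled summit (44.4%, 18.9% to 73.3%, against 35.7% of coding genes), 2 had summits of both replicate lists (against 19.9%) and none had an optimal one (against 2.81%). They were nhr-25 (39.4), nhr-60, which acts in the seam cells of the epidermis (35.3), nhr-2, which is expressed in the early embryo (29.6), and nhr-6 (25.2). The other 5 were nhr-23, nhr-40, nhr-67, nhr-73 and nhr-74. The median over all listed nhr- genes was 28.2, above nhr-6 and below the other 3.

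Nuclear receptor genes that do not carry an nhr- name, and the partners of receptors, were looked up beside the named set. Of 5 such receptors, against a background of 35.7% of coding genes, only sex-1, which reads the number of X chromosomes in sex determination, had a pooled summit, with a signal value of 45.6 at 899 bp upstream, 14.3 in replicate 2 and no summit in replicate 1. daf-12, the receptor of the steroid hormones that control the dauer stage, fax-1, odr-7 and unc-55 had none in any list. Of 9 partners 2 had pooled summits (22.2%, 6.32% to 54.7%, against 35.7% of coding genes), and both were optimal (against 2.81%). The list of partners, like the others, was chosen with earlier results of these data known, so its shares are a description only. din-1, a co-repressor of DAF-12, had a pooled value of 904 at rank 2, with 556 in replicate 1 and 356 in replicate 2, and its pooled value was above that of every nhr- gene. cbp-1, the worm CBP/p300 acetyltransferase, had 136, with 72.0 in replicate 1 and 62.1 in replicate 2, 908 bp upstream. mdt-15 (a Mediator subunit), gei-8 (a co-repressor of the NCoR family) and the sterol enzyme genes daf-9, daf-36, dhs-16, hsd-1 and strm-1 had no pooled summit.

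In base composition the 76 nhr- summits outside the optimal list had a median GC content of 43% in windows of 100 bp, with GAGAGA in 10 of them (13.2%). Over all 81 strongest summits the median was 44% (41% on chromosome V and 48% on the other chromosomes), against 43% over the 7227 pooled summits in any coding window (43% on chromosome V and 43% on the others) and 51% over the 409 optimal ones. The 5 optimal nhr- sites had 59% (nhr-255), 57% (nhr-47), 52% (nhr-1), 51% (nhr-142) and 50% (nhr-48), all above the nhr- median. CG dinucleotides numbered 7 at nhr-255, 11 at nhr-47, 4 at nhr-1, 10 at nhr-142 and 7 at nhr-48, against a median of 4 over the nhr- summits, 4 over all pooled and 8 over all optimal summits in coding windows. Of the 11 CG dinucleotides at nhr-47, 6 lie in the 35 bases printed above, ahead of the 5′ end.

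The word GAGAGA (or its complement TCTCTC on the plus strand) was found in 13 of the 81 windows (16.05%, 9.63% to 25.5%), against 12.7% of pooled and 21.8% of optimal summits in coding windows. It was found in 5 windows on chromosome V (10.9%, 4.73% to 23.04%, against 12.5% of pooled summits in coding windows there) and in 8 on the other chromosomes (22.9%, 12.1% to 39.0%, against 12.8%). Among the optimal genes it was present at nhr-47 and nhr-48 on the plus strand and at nhr-1 on the minus strand, and it can be read in the sequences of nhr-1 and nhr-48 above. AGGTCA (or TGACCT), the core element that many nuclear receptors recognise, was found in 2 of 81 windows (2.47%, 0.680% to 8.56%), against 2.92% of pooled and 2.44% of optimal summits in coding windows. None of the 5 optimal nhr- windows held it. The words do not overlap each other, and a match describes the letters only.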

How the data were processed

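The deposited files are lists of ChIP-seq regions in 2 genome builds, of which those of ce11 were used. Per the submitters' file records, each replicate's alignment, and the pooled one, was set against a control alignment to call its regions, and comparing these lists gave the optimal one. Not given in the sources used here are the aligner, the peak caller and the treatment of reads that map to several places; read depth is unknown, and control libraries were not analysed here. The signal value deposited value per region ranks regions within a list. The −log10 q-value that the authors deposited was at its ceiling for all 5 optimal nhr- genes and was not used. Summits are the deposited offsets added to the region starts, counted from 1.

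Genes and 5′ ends came from Ensembl release 115 (WBcel235). A gene was represented by the highest signal value among summits in its window (1000 bp upstream, 200 bp downstream). Shares have 95% Wilson intervals and their differences Newcombe intervals; these cover counting error only, and the limit for a count of 0 rests on 3 counts. With 1 group of 2 replicates, and members that are not replicates, no hypothesis test was made. Genes named with values were those with an optimal summit, the next 10 by pooled signal value, the highest 3 of chromosome V, and the members of the gene lists; others, such as those with exon summits, were chosen after their values were seen. The members and lists were chosen with earlier results of these data known. Python 3.11.15, numpy 2.4.6, pandas 2.3.3, scipy 1.17.1 and matplotlib 3.10.9 were used, and the placing of summits was tested on simulated data. Alternatives changed the window, the 5′ end, the assignment, the list and the replicates.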

Additional observations from a re-analysis of the deposited data

How the results depend on the processing

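Of 121 alternative values, 100 stayed within the limits set for them (1.5 times the count, or the interval of a share, difference or median), 21 moved and 0 reversed. A change of sign was counted as reversed only where the reported interval was clear of 0. Of the differences this held only for the ends minus the middle of chromosome V. The difference in median log2 signal value, chromosome V minus the rest, was -0.0789 (-0.825 to 0.503). It was above 0 with 500 bp upstream and 100 bp downstream (0.065), without replicate 1 (0.131) and without replicate 2 (0.00396). Optimal summits in runs, 0 in every setting, count as within the limits. When the window was 500 bp upstream and 100 bp downstream, 2 nhr- genes had an optimal summit (1 on chromosome V, 1 elsewhere), 18.0% on chromosome V and 23.5% elsewhere had a pooled one, the median summit position was -82.5 bp, 19 genes had summits of both replicate lists, and 4 genes of the conserved families had a pooled summit. With 2000 bp upstream to 500 bp downstream, the shares were 38.3% and 51.0%, the position -359 bp, and 80 genes had both. Pooled regions found in both replicate lists left 36 genes, 11.4% on chromosome V and 16.7% elsewhere. The stronger 386 optimal regions left 2 genes, 1 on chromosome V and 1 elsewhere, and assignment to the nearest 5′ end left 1 on chromosome V. For these windows, lists and assignments the shares of all coding genes were not computed. Whether the moves are particular to nhr- genes therefore cannot be told.

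With 1 replicate left out, chromosome V had 1 to 2 optimal genes, and the position was -358.5 bp without replicate 1 and -177 bp without replicate 2. The difference of chromosome V minus the rest had an interval below 0 with the larger window (-12.7 points) and with every transcript's 5′ end (-12.4 points), and so did that of genes in runs minus others with every transcript's 5′ end, with regions in both replicate lists, with gaps of up to 2 kb or 10 kb, and with 1 replicate left out (-17.2 points without replicate 1 and -12.8 points without replicate 2). In every other setting tried the interval for chromosome V held 0. That for runs held 0 with the smaller window (-6.72 points, -16.4 to 2.87) and the larger one (-6.32 points, -17.9 to 5.47). It also held 0 with the nearest 5′ end (-7.64 points, -18.3 to 3.11) and with any overlap of region and window (-6.89 points, -18.1 to 4.46). The comparison of the ends with the middle of chromosome V, the run comparisons, the conserved families, the distance of 250 bp and the removal of regions near tRNA genes were added after the data were seen. No paired analysis was possible because there is 1 group. Unknown depth and the unknown scale of the signal value limit what a missing summit means, and the cause of the values that moved was not tested.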
